A study of Homo sapiens with 9 samples.

Results

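Mucins are large glycoproteins that coat epithelial surfaces, and the genes described here are 8 mucin genes and 2 genes of the anterior gradient (AGR) family. They are MUC1, MUC4, MUC13, MUC15, MUC16, MUC20, MUC5AC, MUC5B, AGR2 and AGR3, 10 of the 20442 genes measured, chosen by name, and for each the coding span whose mean over the 9 libraries was highest was used. RNA was measured in PC9, a line of human lung adenocarcinoma cells that depend on mutant EGFR, the target of the inhibitor osimertinib. The FUCCI4 cell cycle reporter was stably expressed in 2 clones, numbered 1 and 7. Cells held in 500 nM osimertinib for 28 days were set against untreated cells of day 0, and after glyoxal fixation the sorter separated G1, S and G2 cells by reporter colour and DNA content. The 4 day 28 libraries were G1 of clone 1, G1 of clone 7, S of clone 1 and G2 of clone 1, and the 5 day 0 libraries were G1 of both clones, S of both clones and G2 of clone 1. No label says that libraries of a clone came from separate cultures, so p-values measure the spread between these libraries only, which may be technical.

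Membrane mucins (MUC1, MUC4, MUC13, MUC15, MUC16 and MUC20 here) are anchored in the cell surface, where their glycosylated ectodomain forms a barrier and their short tail can signal. Gel-forming mucins (MUC5AC and MUC5B) are secreted by goblet and gland cells of the airway and polymerise through disulfide bonds into mucus. AGR2 is a protein disulfide isomerase of the endoplasmic reticulum that mucin-producing cells need to fold gel-forming mucins, as shown for Muc2 in mouse gut, and AGR3 is its close relative, found in ciliated airway cells.

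The reads recovered from the values came to 30.5 to 43.1 M (M for mega) at day 28 and 8.83 to 108.7 M at day 0. They were summed over 1 coding span per gene, and the labels give 24 M reads on average. Every library except day 0 G1 of clone 7 exceeded that average. Whether 1 recovered read is 1 sequenced read was not tested. The day 28 S and G2 libraries stood apart. Among genes with 1 to 40 reads, 23.5% and 23.3% had 1 to 5 reads there, against 35.9% to 51.7% in the other 7 libraries. The density over olfactory receptor genes, which these cells should not express, was 0.00810 to 0.0270 reads per kb of span per M reads at day 28, highest in G2, and 0.00111 to 0.00485 at day 0. The share of mitochondrially encoded genes was 8.61% to 21.6% at day 28 and 6.07% to 10.7% at day 0. The 9 epithelial and lung adenocarcinoma markers were all detected, with 12438 to 23513 summed reads per M at day 28 and 18611 to 29652 at day 0. Summed markers of ciliated cells (3 genes) lay at 17.3 to 80.4 reads per M at day 28 and 7.08 to 11.3 at day 0, those of leukocytes (5 genes) at 2.16 to 2.66 and 0.304 to 1.29, those of basal cells (4 genes) at 9.82 to 32.1 and 13.7 to 40.7, those of fibroblasts (5 genes) at 14.1 to 46.9 and 12.4 to 17.2, and those of endothelium (4 genes) at 2.98 to 8.89 and 6.01 to 11.3. None of these markers was at 0 in every library, and the part of these differences in the results below was not tested.

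The sequences upstream of AGR2, MUC16 and MUC4 are shown because the first fell, the second rose and the third differed between the clones in the tests below. They are the 250 bases before the RefSeq start (GRCh38.p14), 5′ to 3′ on the gene's own strand, with matches to the searched motifs in capitals.
AGR2 (chr7:16805000-16805249, minus strand): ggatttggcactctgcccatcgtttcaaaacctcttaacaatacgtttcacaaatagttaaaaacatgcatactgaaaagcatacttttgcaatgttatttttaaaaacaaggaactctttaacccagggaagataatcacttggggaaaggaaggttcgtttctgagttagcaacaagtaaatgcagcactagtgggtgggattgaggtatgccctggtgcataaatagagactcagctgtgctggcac
MUC16 (chr19:9010410-9010659, minus strand): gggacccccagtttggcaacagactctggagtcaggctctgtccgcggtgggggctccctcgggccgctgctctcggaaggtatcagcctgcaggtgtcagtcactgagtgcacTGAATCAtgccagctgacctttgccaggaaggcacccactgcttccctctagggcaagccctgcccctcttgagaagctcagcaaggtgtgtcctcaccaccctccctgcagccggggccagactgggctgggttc
MUC4 (chr3:195811930-195812179, minus strand): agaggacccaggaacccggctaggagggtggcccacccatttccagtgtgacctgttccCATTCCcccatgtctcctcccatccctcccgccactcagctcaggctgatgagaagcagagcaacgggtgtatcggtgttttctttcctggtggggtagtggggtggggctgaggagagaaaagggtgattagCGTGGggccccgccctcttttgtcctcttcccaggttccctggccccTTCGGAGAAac
The search, on both strands, was for a forkhead motif (TGTTTAC), an AP-1 motif (TGANTCA), a STAT motif (TTCNNNGAA), a TEAD motif (GGAATG), the unfolded protein response core (CCACG) and the TATA box (TATAAA). These letters occur in 2.98%, 6.57%, 6.57%, 11.9%, 33.5% and 10.7% of all 35116 RefSeq promoters of this length, in that order. No match lies in the AGR2 window, whose GC content is 40.4%, against a median of 58% over all promoters. The MUC16 window holds an AP-1 match 136 to 130 bases before the start and has 63.6% GC. RefSeq gives MUC16 a second start further upstream (chr19:9065752-9066001 lies before it), whose window holds no match. The MUC4 window (60.4% GC) holds a STAT match 11 to 3 bases before the start, a TEAD match on the other strand at 191 to 186 and a CCACG match on the other strand at 58 to 54. Of the 10 genes, 6 were found among the RefSeq promoters: these 3, MUC1, MUC13 and AGR3. A match is a run of letters and says nothing of binding.

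After 28 days of osimertinib the membrane mucins MUC16 and MUC20 were higher, and the folding enzyme AGR2 was lower, than at day 0. The values are log2 of scaled reads, and the test was limma with phase as a term and Benjamini-Hochberg adjustment over the 12391 genes with enough reads. By adjusted p under 0.05, 2 of the 5 tested genes of the 10 rose and 1 fell, where 28.6% of all tested genes rose and 26.6% fell. MUC1 and MUC4 did not pass, and MUC13, MUC15, MUC5AC, MUC5B and AGR3 had too few reads to enter the test. In such sorted populations, fewer cells that express a gene and less RNA per cell cannot be told apart.

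**Figure D1:**
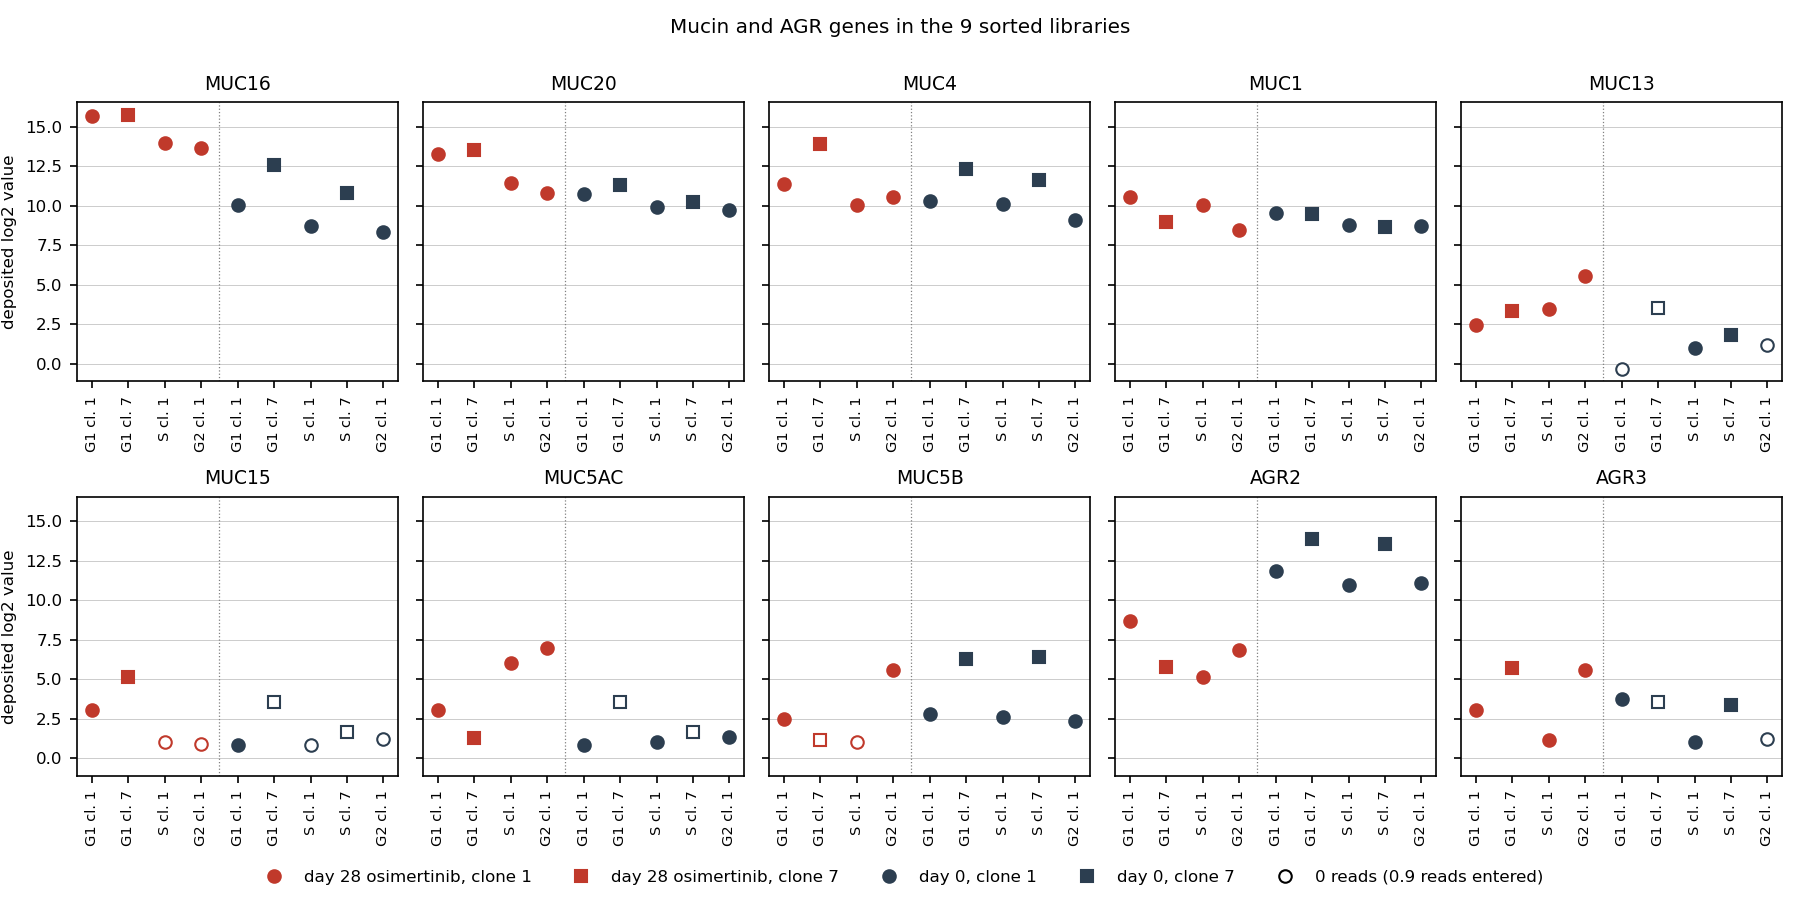
Deposited log2 value (vertical axis) of each of the 10 genes in each library, with day 28 left of the dotted line and day 0 right of it, circles for clone 1, squares for clone 7 and open symbols for 0 reads. MUC16 lies higher and AGR2 lower in all 4 day 28 libraries than in any of the 5 day 0 libraries, and MUC13, MUC15, MUC5AC, MUC5B and AGR3 reach at most 7.00, the MUC5AC value in day 28 G2.

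MUC16 is the largest membrane mucin, best known as the carrier of an ovarian cancer serum antigen and as a ligand of mesothelin. Its deposited log2 values were 15.71 in G1 of clone 1, 15.75 in G1 of clone 7, 13.97 in S and 13.64 in G2 at day 28. At day 0 they were 10.08 in G1 of clone 1, 12.59 in G1 of clone 7, 8.73 in S of clone 1, 10.79 in S of clone 7 and 8.35 in G2. Every day 28 library was above every day 0 library, a separation upwards that 20.9% of all tested genes had, and within each day the G1 libraries of clone 1 exceeded its S and G2 libraries. The reads behind these values were 19515, 22252, 7263 and 6160 at day 28 and 1221, 479, 210, 506 and 127 at day 0, in the same order. MUC16 averaged 14.76 ± 1.12 at day 28 (SD, n = 4) and 10.11 ± 1.71 at day 0 (SD, n = 5). With phase in the model it was 23.3-fold higher at day 28, a log2 fold change of 4.54 ± 0.51 (SE; limma adjusted p = 6.93e-05). The log2 fold change was 4.39 without the day 28 S and G2 libraries (limma adjusted p = 0.00834). In clone 1 alone, with 1 library for each phase at each day, the log2 fold change was 5.38. As single libraries were left out, it lay between 4.11 without day 0 G1 of clone 1 and 5.03 without day 0 G1 of clone 7.

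AGR2 went the other way. At day 28 its log2 values were 8.70 in G1 of clone 1, 5.76 in G1 of clone 7, 5.14 in S and 6.85 in G2. At day 0 they were 11.86 in G1 of clone 1, 13.88 in G1 of clone 7, 10.99 in S of clone 1, 13.55 in S of clone 7 and 11.07 in G2. All 4 day 28 libraries were below all 5 day 0 libraries, as were 18.9% of all tested genes, and the day 0 libraries of clone 7 were the highest of all. AGR2 had 152, 22, 16 and 56 reads at day 28 against 4198, 1169, 1006, 3419 and 842 at day 0. It averaged 6.62 ± 1.56 at day 28 (SD, n = 4) and 12.27 ± 1.37 at day 0 (SD, n = 5), and with phase in the model it was 53.6-fold lower at day 28 (log2 fold change -5.75 ± 0.73 SE; limma adjusted p = 1.43e-04). The log2 fold change was -5.62 without the day 28 S and G2 libraries (limma adjusted p = 0.00937). In clone 1 alone, with 1 library for each phase at each day, the log2 fold change was -4.39. Leaving out single libraries moved it between -6.30, without day 28 G1 of clone 1, and -5.15, without the day 28 S library.

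MUC20 is a membrane mucin reported to bind MET, the receptor of hepatocyte growth factor. Its log2 values at day 28 were 13.29 in G1 of clone 1, 13.57 in G1 of clone 7, 11.43 in S and 10.82 in G2. The day 0 values were 10.77, 11.31, 9.93, 10.26 and 9.75, with G1 of clones 1 and 7 first, then S of clones 1 and 7, then G2. The 2 groups overlapped, since G2 at day 28 lay below G1 of clone 7 at day 0, but within each phase day 28 was higher. MUC20 averaged 12.28 ± 1.36 at day 28 (SD, n = 4) and 10.40 ± 0.64 at day 0 (SD, n = 5), and it was 3.39-fold higher (log2 fold change 1.76 ± 0.27 SE; limma adjusted p = 3.56e-04). The log2 fold change was 2.39 without the day 28 S and G2 libraries (limma adjusted p = 0.00304), and single libraries left out moved it between 1.55 (day 0 G1 of clone 1) and 1.97 (G2 of either day). Its span on chromosome 3 lies in MUC20-OT1 on the same strand in GENCODE v29. A pseudogene, MUC20P1, is a near copy, so reads of the 3 cannot be fully told apart. The span used holds 556 bases of coding exon, 3.80% of its length. It leaves out the 5′ 3.70 kb of another MUC20 span, so the MUC20 values do not cover the whole gene. In day 28 G2 that 5′ stretch held 0 of the 629 reads of the other span, against 1.95% to 8.09% in the other libraries. The span used had 875 reads in day 28 G2.

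The remaining tested mucins did not pass. MUC4, a membrane mucin whose rat counterpart binds ErbB2, had log2 values of 11.35, 13.89, 10.07 and 10.56 at day 28 (G1 of clones 1 and 7, S, G2). At day 0 they were 10.33, 12.35, 10.12, 11.65 and 9.13 (G1 of clones 1 and 7, S of clones 1 and 7, G2). The groups overlapped, and the clone 7 libraries were the highest of each day. The log2 fold change of MUC4 was 0.67 ± 0.62 SE (limma adjusted p = 0.372). With the clone as a block it was 1.01 ± 0.26 SE and passed (limma adjusted p = 0.00690). In clone 1 alone, with 1 library for each phase at each day, it was 0.80.

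MUC1, the widely expressed epithelial membrane mucin, had log2 values of 10.56, 8.96, 10.04 and 8.49 at day 28 against 9.53, 9.47, 8.79, 8.63 and 8.73 at day 0, in the same order of libraries. The day 28 values ran from below the lowest to above the highest day 0 value. Its log2 fold change was 0.47 ± 0.39 SE (limma adjusted p = 0.315). Reads of AL713999.1, which overlaps MUC1 on the same strand in GENCODE v29, may be counted with it.

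Of the other membrane mucins, MUC13, a mucin of gut epithelium, had 2, 4, 5 and 23 reads at day 28 and 0, 0, 1, 1 and 0 at day 0. MUC15, a small membrane mucin, had 3, 14, 0 and 0 reads at day 28 and 2, 0, 0, 0 and 0 at day 0. Both were near the floor of detection in most libraries, and the largest count of MUC13 was in the day 28 G2 library. A count of 0 over the MUC15 span allows up to 0.0122 and 0.0115 reads per kb per M in the day 28 S and G2 libraries, and MUC15 lies within ANO3 on the opposite strand. Intervals and floors cover counting error only, since PCR copies without molecular identifiers are not independent molecules.

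Neither gel-forming mucin was abundant at either day. MUC5AC, the main goblet cell mucin of the airway surface, had 3, 1, 29 and 62 reads at day 28 against 2, 0, 1, 0 and 1 at day 0. The 2 higher counts, in the day 28 S and G2 libraries, were 0.0166 and 0.0337 reads per kb per M, which is 1.30 and 1.25 times the density over olfactory receptor genes in the same libraries. Without the filter on low values MUC5AC had a log2 fold change of 2.46 ± 0.95 SE (limma adjusted p = 0.0486), and MUC13 one of 1.80 ± 0.82 SE (limma adjusted p = 0.0898). MUC5B, the mucin of submucosal glands and mucociliary clearance, had 2, 0, 0 and 23 reads at day 28 against 8, 6, 3, 24 and 2 at day 0. Its highest densities were in the day 0 libraries of clone 7, 0.0177 in G1 and 0.0206 in S, which is 3.64 and 17.5 times the olfactory density there. In the unfiltered fit MUC5B (-1.38 ± 1.09 SE), AGR3 (0.96 ± 0.90 SE) and MUC15 (0.64 ± 0.77 SE) had adjusted p of 0.357, 0.460 and 0.591 by limma. AGR3 had 3, 21, 1 and 23 reads at day 28 against 15, 0, 1, 3 and 0 at day 0, at most 3.91 times the olfactory density, so the loss measured for AGR2 could not be looked for in AGR3 at this depth. MUC5B overlaps MUC5B-AS1 on the opposite strand and AGR3 overlaps RAD17P1. Reads in the repeats of MUC4, MUC16, MUC5AC and MUC5B can map to several places, and how these were assigned is not given in the sources used here.

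Levels of different genes were compared as reads per kb of span per M reads. AGR2 was first of the 10 genes in every day 0 library, at 2.14 to 14.9, and MUC20 was first in every day 28 library, at 1.39 to 10.0. The MUC20 rank is that of the span used, which leaves out part of the gene. AGR2 lay at 0.0441 to 0.560 at day 28, behind MUC20, MUC16 and MUC1 in every library. With each gene's reads divided by its coding exon length, all taken as exonic, a length chosen after seeing the data, AGR2 exceeded MUC1 in day 28 G1 of clone 1 (8.15 and 4.69 reads per kb per M) and in day 28 G2 (2.13 and 1.05). MUC16 lay at 0.886 to 4.11 at day 28 and at 0.0178 to 0.336 at day 0, where AGR2, MUC20, MUC1 and MUC4 exceeded it in every library. The ratio of MUC16 to AGR2 was 7.07 in G1 of clone 1, 55.7 in G1 of clone 7, 25.0 in S and 6.06 in G2 at day 28. At day 0 the ratio was 0.0160, 0.0226, 0.0115, 0.00815 and 0.00831, so MUC16 was above AGR2 in every day 28 library and far below it in every day 0 library. Per kb of coding exon the ratio was 1.80, 14.2, 6.37 and 1.54 at day 28 and 0.00208 to 0.00575 at day 0, so its size rests on the length used, since coding exons hold 43535 bases of the MUC16 span of 161.4 kb and 611 bases of the AGR2 span of 8.89 kb.

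**Figure D2:**
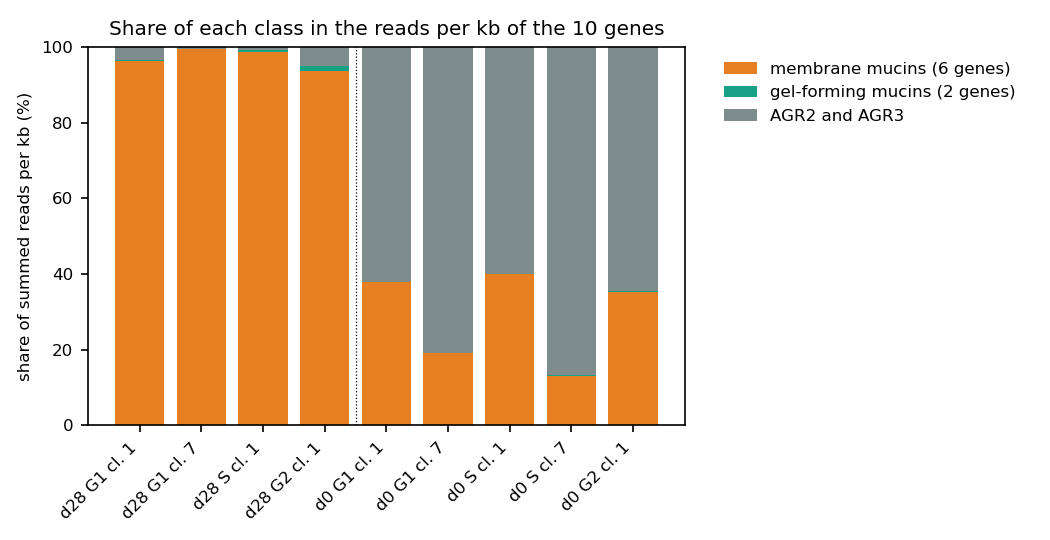
Share of membrane mucins, gel-forming mucins and the AGR pair in the summed reads per kb of the 10 genes (vertical axis, %), for each library, with day 28 left of the dotted line and day 0 right of it. Membrane mucins hold 93.5% to 99.4% at day 28 and 13.1% to 40.0% at day 0, and most of the rest is AGR2.

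Of the summed reads per kb of the 10 genes, AGR2 and AGR3 made up 3.54%, 0.571%, 0.874% and 5.06% at day 28 and 62.1%, 80.9%, 59.9%, 86.8% and 64.6% at day 0. At day 0 almost all of this was AGR2. In day 28 G1 of clone 7, AGR2 lay at 0.0738 and AGR3 at 0.0292 reads per kb per M. The gel-forming mucins held at most 1.41%, in the day 28 G2 library. The sum itself ranged from 3.38 to 18.0 at day 28 and from 3.32 to 18.4 at day 0, so the makeup of the set differed between the days while the ranges of its total overlapped.

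The reads did not lie evenly along the long mucin genes. The counts run from start to stop codon and include introns, and nested spans in the file allow a gene to be split into stretches. MUC16 lies on chromosome 19, 8848932 to 9010356 on GRCh38, on the minus strand. Its span is 161.4 kb, of which GENCODE v29 gives 43535 bases as coding exon. The 3′ 47.2 kb hold 4054 coding bases and the middle 85 kb hold 39481, most of the total. The 3′ stretch held 93.4%, 92.6%, 90.8% and 93.2% of the MUC16 reads at day 28 and 93.7%, 92.9%, 92.4%, 95.7% and 73.2% at day 0. The middle held 4.40% to 6.88% at day 28 and 4.15% to 21.3% at day 0, with the highest share in day 0 G2, where MUC16 had 127 reads (95% Wilson interval 15.0% to 29.2%). The middle, with most of the coding bases, thus had few of the reads in every library. The day 28 rise of MUC16 was counted mainly over its 3′ part, at 2.83 to 13.0 reads per kb per M at day 28 against 0.0447 to 1.07 at day 0. In MUC4 (chromosome 3, 195747176 to 195811817, minus strand) the share of reads in the 3′ 6.01 kb was 45.7% to 48.3% at day 28 and 41.3% to 59.8% at day 0.

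**Figure D3:**
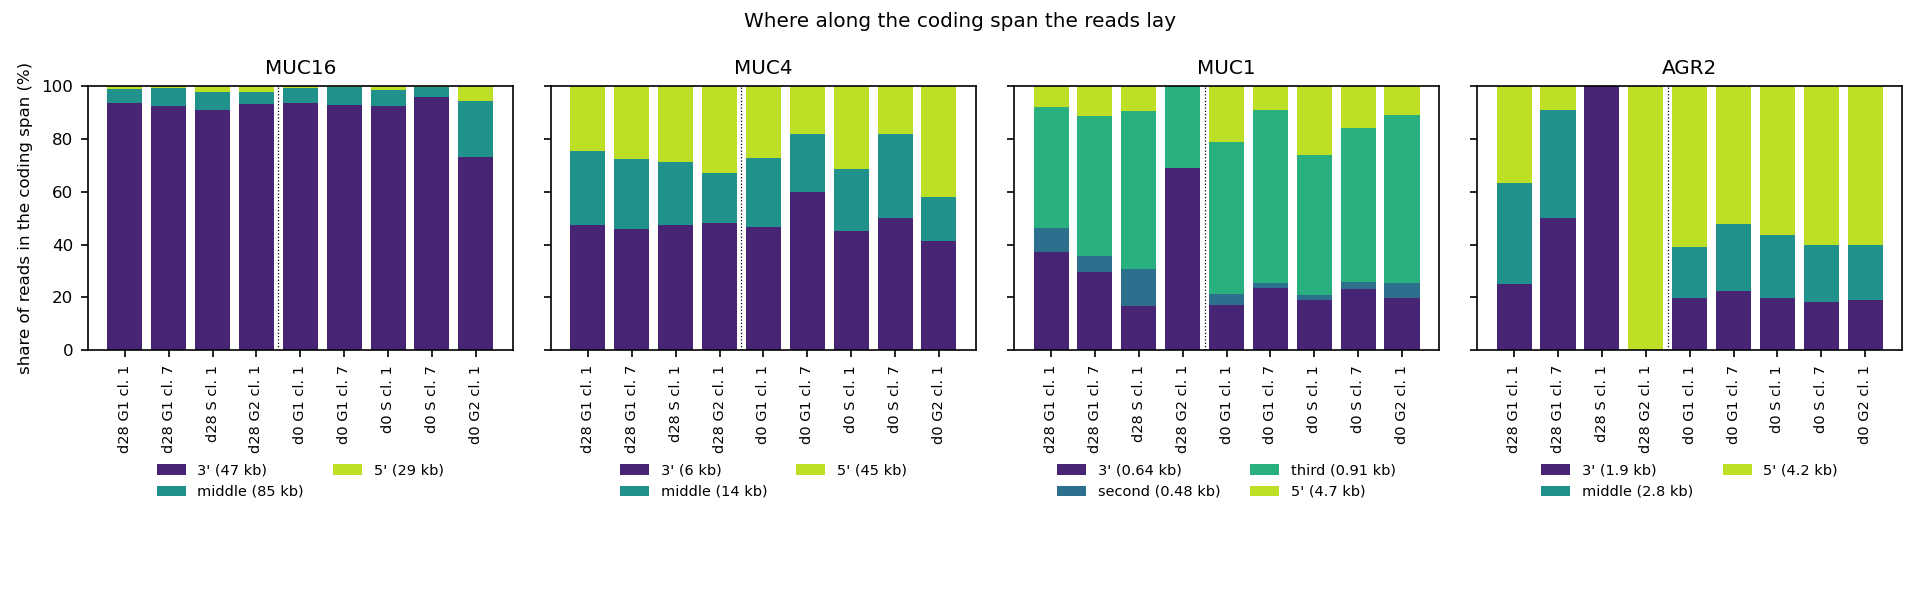
Share of each gene's reads (vertical axis, %) by stretch of its coding span, for MUC16, MUC4, MUC1 and AGR2 in each library, with day 28 left of the dotted line and day 0 right of it. In the day 28 S and G2 libraries the AGR2 reads all lie in 1 stretch, and the MUC16 reads lie mainly in the 3′ part in every library.

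AGR2 (chromosome 7, 16792908 to 16801796, minus strand, 8.89 kb) had its 16 reads of the day 28 S library in the 3′ 1.94 kb, 100% of them (95% Wilson interval 80.6% to 100%). Its 56 reads of the day 28 G2 library all lay in the 0.6 kb at the 5′ end, which, together with a short stretch at the 3′ end, held 25.1% to 35.3% at day 0. The G1 libraries of day 28 had AGR2 reads in all 3 stretches. At day 0 the 3′ 1.94 kb held 18.4% to 22.3% of the AGR2 reads and the 5′ 4.17 kb held 52.1% to 60.8%. In the day 28 G2 library the 174 reads of MUC1 lay in 2 stretches, with 120 in the 3′ 0.637 kb, 54 in a stretch of 0.914 kb and 0 in the remainder, which held reads in the other 8 libraries. These 2 libraries are those in which few genes have 1 to 5 reads. How many distinct molecules lie behind the AGR2 and MUC1 reads there was not tested.

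**Figure D4:**
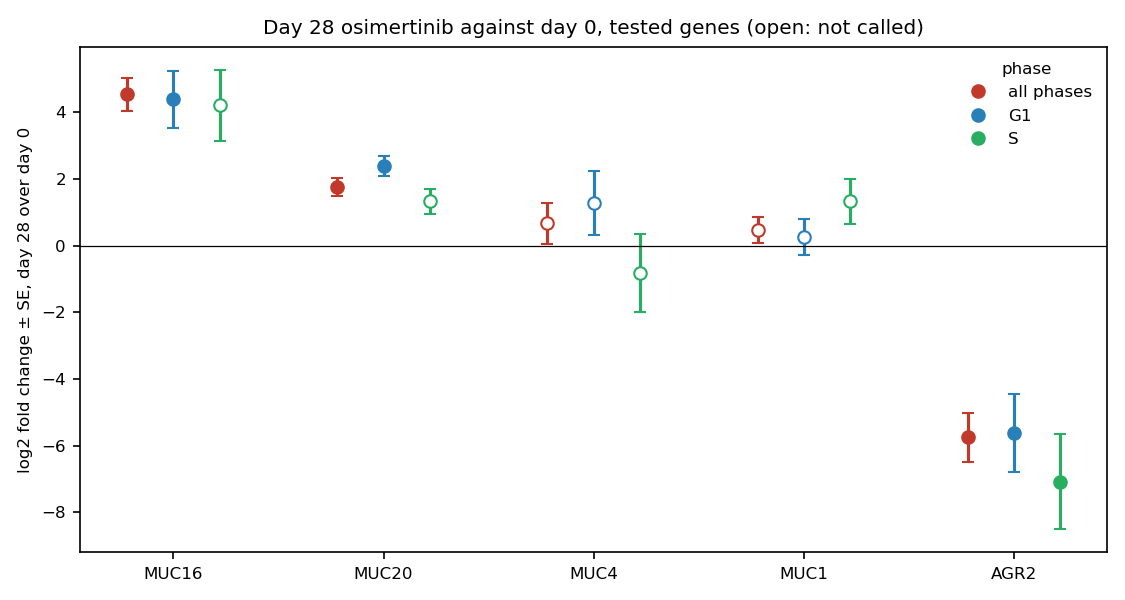
Log2 fold change of day 28 over day 0 (vertical axis, bars ± SE from limma) for the 5 tested genes over all phases, in G1 and in S, filled where the adjusted p was under 0.05. MUC16 and MUC20 lie above 0 and AGR2 below 0 in all 3, with MUC16 and MUC20 open in S, and MUC4 changes sign between G1 and S without passing in either.

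Within G1, the one phase with 2 libraries at each day, MUC16, MUC20 and AGR2 passed again, where 19.8% of all tested genes rose and 19.1% fell. MUC20 was 5.25-fold higher at day 28 (log2 fold change 2.39 ± 0.31 SE; limma adjusted p = 0.00311) and MUC16 21.0-fold higher (4.39 ± 0.87 SE; limma adjusted p = 0.00864). AGR2 was 49.3-fold lower (-5.62 ± 1.17 SE; limma adjusted p = 0.0102). Without G1 of clone 7 at day 28 only MUC20 of the 5 genes passed. MUC16 then had a log2 fold change of 4.37 (limma adjusted p = 0.0548) and AGR2 one of -4.17 (limma adjusted p = 0.0630). Without G1 of clone 1 at day 28 MUC16 was not called at 4.41 (limma adjusted p = 0.0603), and AGR2 was -7.08. Leaving out G1 libraries of day 0 gave MUC16 3.14 (without clone 1) and 5.64 (without clone 7), both called, and over all single libraries left out the MUC4 value in G1 ran from 0.0125 to 2.55 without being called. MUC4 (1.28 ± 0.96 SE) and MUC1 (0.26 ± 0.54 SE) did not pass, with limma adjusted p of 0.313 and 0.719, and MUC4 passed with the clone as a block (0.0157).

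In S, with 1 library at day 28 that was assumed to vary like the other groups, AGR2 alone of the 5 genes passed, where 4.37% of all tested genes rose and 2.90% fell. AGR2 was 135-fold lower (log2 fold change -7.08 ± 1.43 SE; limma adjusted p = 0.0379), from the 16 reads described above. The day 28 S library was of clone 1, while the day 0 S group held both clones, so clone and day are mixed in these S values. Against day 0 S of clone 1 alone, the log2 difference was -5.80 for AGR2 (55.8-fold lower) and -0.04 for MUC4. The AGR2 call was lost in 5 of 19 alternatives. Without day 0 S of clone 7 the log2 fold change was -5.80 (limma adjusted p = 0.118), and without day 28 G1 of clone 1 or of clone 7 it stayed at -7.08 (limma adjusted p = 0.0636 and 0.0627). The other 2 were voom on recovered reads, at -7.02 (limma adjusted p = 0.0715), and olfactory density subtracted, at -7.56 (limma adjusted p = 0.0731). MUC16 (4.21 ± 1.06 SE), MUC20 (1.33 ± 0.38 SE), MUC1 (1.33 ± 0.67 SE) and MUC4 (-0.81 ± 1.17 SE) had limma adjusted p of 0.0543, 0.0684, 0.210 and 0.663. With the clone as a block MUC16 was at 4.98 and MUC20 at 1.52, and both were then called besides AGR2. The share of all tested genes called in that fit is not given here. In G2, with 1 library at each day, there is no replicate, and the log2 difference of day 28 over day 0 was 5.29 for MUC16, 1.07 for MUC20, 1.43 for MUC4, -0.24 for MUC1 and -4.21 for AGR2.

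The day effect was not shown to differ between phases for any of the 5 genes. The term for S and G2 against G1 passed for 0% of all tested genes, with 1382 at an unadjusted p under 0.05, and MUC20 came nearest among the 5 (log2 difference of effects -1.17 ± 0.41 SE; limma adjusted p = 0.349).

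Phase itself was compared within each day, on the mean of S and G2 against G1. At day 28 MUC20 was 4.95-fold lower in S and G2 than in G1 (log2 difference -2.31 ± 0.31 SE; limma adjusted p = 0.0101), and it was the only one of the 5 to pass, where 1.85% of all tested genes were lower. Its call was lost without day 28 G1 of clone 7 (limma adjusted p = 0.109). MUC4 (-2.30 ± 0.96 SE), MUC16 (-1.92 ± 0.87 SE), AGR2 (-1.22 ± 1.17 SE) and MUC1 (-0.49 ± 0.54 SE) had limma adjusted p of 0.188, 0.216, 0.552 and 0.609. The S and G2 groups of day 28 are the 2 libraries that stand apart, so phase and library cannot be told apart there. Both are of clone 1, while G1 of day 28 holds both clones, so clone is mixed in as well. With the clone as a block the day 28 log2 differences were -2.12 for MUC20, -1.29 for MUC4, -1.15 for MUC16, -0.95 for AGR2 and -0.80 for MUC1. Among the day 0 groups, G2 was of clone 1 only, while G1 and S held both clones. At day 0 none of the 5 passed and 0% of all tested genes did, with 616 at an unadjusted p under 0.05. MUC20 (-1.11 ± 0.29 SE) and MUC16 (-2.28 ± 0.81 SE) had the lowest adjusted p, 0.465 and 0.848 by limma, and all 5 differences were negative.

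Over both days together, MUC4 was the one of the 5 tested genes called between the clones. In the 3 matched pairs clone 7 exceeded clone 1 by 2.54 in day 28 G1, 2.02 in day 0 G1 and 1.53 in day 0 S on the log2 scale. MUC4 was 4.56-fold higher in clone 7 than in clone 1 (log2 fold change 2.19 ± 0.30 SE; limma adjusted p = 0.0138), the one call among the 5 genes, where 0.387% of all tested genes were higher in clone 7. The call was lost without day 0 G1 of clone 1 (limma adjusted p = 0.148), day 0 S of clone 7 (0.136) or day 28 G1 of clone 1 (0.0713), while the log2 fold change stayed between 1.93 and 2.45. MUC16 (1.49 ± 0.39 SE), MUC1 (-0.74 ± 0.39 SE), MUC20 (0.44 ± 0.28 SE) and AGR2 (0.79 ± 0.83 SE) had limma adjusted p of 0.105, 0.398, 0.484 and 0.693. Without day 28 G1 of clone 7, MUC16 (2.26; limma adjusted p = 0.00120) and AGR2 (2.33; limma adjusted p = 0.0491) were also called.

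For AGR2 and MUC16 the clone difference was not alike at the 2 days. The log2 difference of clone 7 over clone 1 for AGR2 was -2.92 in day 28 G1, 2.02 in day 0 G1 and 2.56 in day 0 S. MUC16 of clone 7 was 0.04 above clone 1 in day 28 G1, and 2.51 and 2.06 above it in day 0 G1 and S. The 2 clones thus had nearly the same MUC16 value at day 28 after differing at day 0. The clone difference at day 28 minus that at day 0, a term added after seeing the data, was -2.14 ± 0.37 SE for MUC16 (limma adjusted p = 0.0407), where 0.274% of all tested genes passed with a negative term. For AGR2 it was -4.32 ± 0.92 SE and did not pass (limma adjusted p = 0.0738). Between matched libraries, the log2 difference of day 28 over day 0 for MUC16 was 5.62 in G1 of clone 1, 3.15 in G1 of clone 7, 5.24 in S and 5.29 in G2. For AGR2 it was -3.16, -8.09, -5.80 and -4.21, and for MUC20 2.53, 2.26, 1.49 and 1.07. The day effect had 1 sign in all 4 matched pairs for these 3 genes, and in neither MUC1 (1.03, -0.50, 1.25 and -0.24) nor MUC4 (1.02, 1.54, -0.04 and 1.43).

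Genes of the pathways that make, fold, regulate and release mucins are given next from lists drawn from general knowledge, with values after "by" or a gene name as log2 fold changes of day 28 over day 0. Disulfide isomerases, the family of AGR2, were listed together with oxidases that supply disulfides, and the joint list was mostly lower. Of 23 tested, 14 fell, 1 rose and 8 did not pass. That is 60.9% lower and 4.35% higher, beside the 26.6% and 28.6% of all tested genes given above. The median log2 fold change was -0.62, against 0.01 over all tested genes. TXNDC12, the third member of the AGR family, fell by 0.62 ± 0.17 SE (limma adjusted p = 0.0105). The TXNDC12 call was lost in 2 of 23 alternatives, among them without the day 28 S and G2 libraries, at -0.62 (limma adjusted p = 0.0824). PDIA6, an isomerase, averaged 13.93 ± 0.32 at day 28 (SD, n = 4) and 16.03 ± 0.07 at day 0 (SD, n = 5), a log2 fold change of -2.07 ± 0.18 SE (limma adjusted p = 2.19e-05). ERO1A and QSOX1, oxidases that supply disulfides, had log2 fold changes of -1.90 and -1.78, and TXNDC16 was the one that rose (1.31 ± 0.51 SE; limma adjusted p = 0.0451), a call lost in 12 of 22 alternatives.

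**Figure D5:**
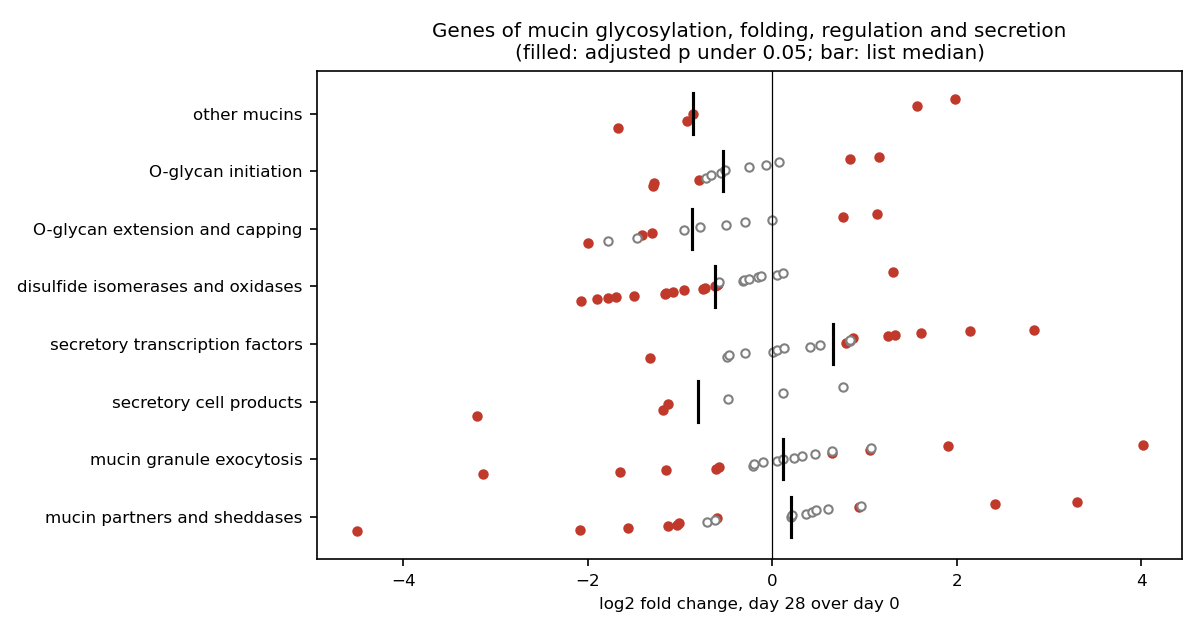
Log2 fold change of day 28 over day 0 (horizontal axis) for each tested gene of 8 lists, filled where the adjusted p was under 0.05, with a bar at each list's median. Disulfide isomerases and oxidases lie mostly left of 0, with a median of -0.62, and secretory transcription factors mostly right of it, with a median of 0.66.

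Of 18 tested transcription factors and sensors of secretory differentiation 7 rose, 1 fell and 10 did not pass (median log2 fold change 0.66), or 38.9% higher and 5.56% lower where 28.6% and 26.6% of all tested genes were. GRHL2, a grainyhead factor of epithelia, rose by 2.15 ± 0.23 SE (limma adjusted p = 5.59e-05), its relative GRHL3 by 1.61 ± 0.32 SE, and CREB3L2, a factor cleaved from the endoplasmic reticulum, by 2.84 ± 0.41 SE. FOXA1, a forkhead factor of airway epithelium, was the one that fell (-1.32 ± 0.34 SE; limma adjusted p = 0.00670). XBP1, the unfolded protein response factor, had -0.47 ± 0.22 SE (limma adjusted p = 0.0990). SPDEF, the goblet cell factor, had 141 reads in all at day 28 and 321 at day 0 and did not enter the test, nor did FOXA2 (0 and 8 reads), FOXA3 (45 and 4), NKX2-1 (567 and 154), ERN2 (52 and 2), CREB3L1 (132 and 316) and HNF4A (91 and 41).

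The shares of glycosylation enzymes called were below those of all tested genes (28.6% higher and 26.6% lower), at 16.7% higher and 25.0% lower in both lists. Of 12 tested GALNT enzymes, which begin O-glycan chains, 2 rose and 3 fell (median -0.53), with GALNT10 (1.16 ± 0.23 SE) and GALNT13 (0.84 ± 0.31 SE) higher and GALNT1 (-1.29 ± 0.30 SE), GALNT14 (-1.28 ± 0.20 SE) and GALNT2 (-0.79 ± 0.18 SE) lower. GALNT13 was -0.87 when a trend with span length was removed, so its direction depends on that step, and its call was lost in 11 of 23 alternatives. Of 12 tested enzymes that extend or cap the chains, 2 rose and 3 fell (median -0.87). ST6GALNAC4, a sialyltransferase, fell to a mean of 8.75 ± 0.63 at day 28 (SD, n = 4) against 10.79 ± 0.45 at day 0 (SD, n = 5; limma adjusted p = 1.89e-04). B3GNT3 fell by 1.30 ± 0.21 SE and ST6GALNAC6 by 1.41 ± 0.44 SE, while GCNT2 rose by 1.14 ± 0.36 SE, a call lost in 8 of 23 alternatives, and B4GALT5 by 0.77 ± 0.21 SE. C1GALT1, which makes the core chain, had -0.50 ± 0.23 SE (limma adjusted p = 0.0850).

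Among 19 tested genes of granule exocytosis 4 rose, 5 fell and 10 did not pass (median 0.12). These shares, 21.1% higher and 26.3% lower, were not above those of all tested genes (28.6% and 26.6%). EXPH5, an effector of RAB27, rose by 4.02 ± 0.44 SE (limma adjusted p = 6.78e-05), and SYTL2 and SYTL1, also RAB27 effectors, by 1.91 ± 0.46 SE and 1.06 ± 0.37 SE. RAB27B fell by 3.14 ± 0.74 SE, RAB27A by 1.65 ± 0.27 SE and CPLX1 by 1.16 ± 0.42 SE. The CPLX1 call was lost in 10 of 23 alternatives and that of SYTL1 in 9 of 22. RAB27B was -1.40 without the day 28 S and G2 libraries and was then not called (limma adjusted p = 0.117).

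Of 19 tested partners and proteases of membrane mucins 3 rose, 7 fell and 9 did not pass (median 0.20). That is 15.8% higher and 36.8% lower, where 28.6% and 26.6% of all tested genes were. MSLN (mesothelin), the binding partner of MUC16, averaged 9.13 ± 0.86 at day 28 (SD, n = 4) and 5.82 ± 1.16 at day 0 (SD, n = 5) and rose by 3.31 ± 0.49 SE (limma adjusted p = 3.11e-04). MMP14, a membrane protease that can shed MUC1, rose by 2.41 ± 0.45 SE, and ADAM10 by 0.94 ± 0.35 SE, a call lost in 10 of 23 alternatives, with values down to 0.0797. LGALS1, a galectin, fell by 4.51 ± 0.36 SE, SDC1, a surface proteoglycan, by 2.09 ± 0.32 SE, and MSN (moesin) by 1.57 ± 0.35 SE. ERBB2, the partner of rat Muc4, had 0.36 ± 0.22 SE (limma adjusted p = 0.190). Of 5 tested other mucins and mucin-like genes OVGP1 (1.56 ± 0.53 SE) and SELPLG (1.98 ± 0.48 SE) rose, and CD164 (-0.92 ± 0.24 SE), PODXL (-1.67 ± 0.55 SE) and PODXL2 (-0.86 ± 0.21 SE) fell. These shares of 40% higher and 60% lower stand beside the same 28.6% and 26.6%. The OVGP1 call was lost in 8 of 23 alternatives. Of the 6 tested products of secretory cells 0 rose and 3 fell, or 0% and 50%, where 28.6% and 26.6% of all tested genes did. Those that fell were ANO1, a chloride channel (-3.20 ± 0.46 SE), LCN2 (-1.19 ± 0.41 SE) and SLPI (-1.13 ± 0.38 SE). The other 30 of that list had too few reads to be tested. Without the day 28 S and G2 libraries LCN2 was -0.38 (limma adjusted p = 0.631) and SLPI -0.58 (limma adjusted p = 0.459), and both calls were lost in 8 of 23 alternatives. Of the 39 calls of genes named from these lists, 15 were lost without those 2 libraries, which leaves 7 libraries in the fit, and all 39 kept their sign. Among all tested genes, the calls went from 3538 to 2446 higher and from 3291 to 2396 lower in the same step.

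The genes whose log2 values ran most like those of 3 of the 10 across the 9 libraries are given as a description. They were sought among 11426 tested genes, after symbols shaped like those of pseudogenes or clones were left out. That pattern also dropped coding genes whose symbols end in P and a number, such as MMP14 and XBP1. For AGR2 these were TRIB2 (Pearson r = 0.991), SLC1A6 (0.974), TM4SF19 (0.971), SULF2 (0.962) and SOX15 (0.962). For MUC16 they were SCX (0.992), FAM229A (0.991), AKR7A3 (0.990), PHYKPL (0.987) and AIFM3 (0.986). For MUC5AC they were PLEKHO1 (0.985), C10orf88 (0.983), ADAM22 (0.971), IL15 (0.969) and CORO2B (0.965), and these rest on the 2 libraries with more than 3 MUC5AC reads. Libraries share days, phases and clones, and no test was made.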

How the data were processed

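The deposited file gives log2 values for 80037 coding transcripts in the 9 libraries. Per the submitters' processing notes, the build was GRCh38, and HISAT2 2.1.0 and DESeq2 were among the tools. The read counter and the scaling are not given in the sources used here. Per the labels' protocols, the libraries were stranded, from poly(A) RNA, amplified over 10 to 18 PCR cycles, and single-end sequencing (75 bp) gave 24 M reads on average. From the values, entries are log2 of whole reads multiplied by a factor of the library, and 0 reads are entered as 0.9: up to 1000 reads, 100% of the recovered numbers were whole to within 0.05. The reads run over coding spans, introns included.

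The members and gene lists were chosen with earlier results of these data known. Each gene took its span with the highest mean, the widest for all 10 members. Tests ran on log2(scaled reads + 1), so folds of low genes are understated. Genes with a mean log2 of at least 7.01, 10 reads in the shallowest library, entered the tests (12391 of 20442). Tests used limma 3.58.1 in R 4.3.3 with the data.table package, version 1.17.8 (eBayes with a trend in the mean; adjusted p by Benjamini-Hochberg, threshold 0.05). The day 28 test was also run on simulated data without clone or phase effects, so that run cannot give the error rates in these libraries. Day 28 against day 0 had phase as a term, the clones had day and phase, and comparisons within a day or phase fitted 6 group means sharing 1 estimate of the spread, and 3 of the groups hold 1 library. A planned count test was not run because the values are log2. The rest used pandas 2.3.3, numpy 2.4.6, matplotlib 3.10.9 and scipy 1.17.1 under Python 3.11.15, with spans and overlaps from GENCODE v29 where it names the transcript and promoters from RefSeq.

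Clone numbers pair libraries by line: deviations of clone 7 from clone 1 correlated at 0.653 (day 0 G1 and S), 0.115 (day 0 and day 28 G1) and 0.296 (day 0 S and day 28 G1) over 12391 genes. Values with the clone as a replicate block stand beside the results whose call it changed.

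Named whatever their result were the 10 members and 13 further genes (SPDEF, FOXA1, FOXA2, FOXA3, NKX2-1, XBP1, ERN2, CREB3L1, HNF4A, TXNDC12, MSLN, ERBB2 and C1GALT1). From each list not of other cell types, up to 3 genes each way with the largest change among those called were named. The 5 genes that correlated most with each of AGR2, MUC16 and MUC5AC among the 11426 searched were also named. Alternatives were 2 other scalings, other filters and pseudocounts (0.1 and 5), limma-voom on recovered reads, the clone block, clone 1 alone, each library left out, the span of median width, the olfactory density subtracted, a trend with span length removed and the mean of within-phase effects. A clone-by-day term, leaving out the day 28 S and G2 libraries, and levels per kb of coding exon were chosen after seeing the data.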

Additional observations from a re-analysis of the deposited data

Results flagged for a closer look

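The term of clone by day for MUC16, the clone difference at day 28 minus that at day 0, was -2.14 ± 0.37 SE on the log2 scale (limma adjusted p = 0.0407). The model was chosen after seeing this difference in the same libraries, so its p is no independent evidence of it, and in it 0.274% of all tested genes had a negative term past the threshold. The day 28 side rests on 1 library of each clone. The term lay between -2.28 and -1.78 over 18 alternatives and passed in 10 of them, and was lost in 8. The call was lost under quantile scaling (limma adjusted p = 0.199), with voom on recovered reads (0.0826), with olfactory density subtracted (0.108), and without day 0 G1 of clone 7 (limma adjusted p = 0.377), day 0 S of clone 1 (0.102), G2 of day 0 (0.113), S of day 28 (0.0875) or G2 of day 28 (0.112). The same term was -4.32 ± 0.92 for AGR2 (limma adjusted p = 0.0738) and was not called.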

How the results depend on the processing

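The day 28 effects of MUC16 (3.64 to 5.38), MUC20 (1.45 to 2.39) and AGR2 (-6.85 to -4.39) kept direction and call in all 23 alternatives. Of 1488 alternative values of single genes, 1323 kept direction and side of the threshold, and of 230 alternative counts of calls, 206 stayed within 1.5 times the reported count. Quantile scaling put the median of all genes at -0.14. Genes of the lists numbered 21 higher and 39 lower, with 42 higher without a filter, 12 higher at the span of median width and 22 lower without the day 28 S and G2 libraries. Tested members called in S numbered 1, 2 with quantile scaling, no filter, 1 read per M in 4 libraries or voom (with voom MUC16 and MUC20, not AGR2), 3 with the clone as a replicate block and 0 with olfactory density subtracted; for the clones they numbered 1, 0 with quantile scaling, the median span or olfactory density subtracted, and 2 without a filter. Over libraries left out the called members ranged from 1 to 3 in G1, 0 to 3 in S, 0 to 1 for S and G2 against G1 at day 28, and 0 to 3 for the clones. Sign changes were in values that were not called, GALNT13 apart: MUC1 -0.0857 under quantile scaling (G1 -0.0534, and -0.74 at the median span), MUC4 in S 0.21 with the clone block, MUC1 in S and G2 against G1 at day 28 0.40 at the median span, ERBB2 -0.0881 at the median span, XBP1 0.0423 without the day 28 S and G2 libraries, and GALNT13 -0.87 with the span trend removed. Leaving out libraries gave MUC1 in G1 -0.53 to 1.06, MUC1 -1.29 to 0.30 and AGR2 -2.68 to 0.24 for S and G2 against G1 at day 28, and AGR2 -0.45 to 2.33 for the clones. The causes were not tested, and no share of all tested genes is given beside the member counts of these alternatives. The clone block changed no other member call than MUC4 (all phases, G1) and MUC16 and MUC20 (S). Day 28 S and G2, with 1 library each, and 8.83 M reads in the shallowest library limit what low genes can show.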
